A study of Homo sapiens with 16 samples.

Results

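The E2F transcription factors E2F1, E2F2, E2F3, E2F4, E2F5, E2F6, E2F7 and E2F8 and the pocket proteins RB1 and RBL1 were followed through knockdown of TPX2, a spindle assembly factor, in IMR32 cells. The 10 genes were found by their symbols, and they are 10 of the 58787 Ensembl gene rows of the count table. All 10 were among the 14193 genes that had enough counts to be tested. IMR32 is an established human neuroblastoma cell line with amplified MYCN, labelled as brain tissue and as neuroblast. The knockdown, labelled as such, used 3 different siRNA sequences (si45, si46 and si47) in 4 biological replicates each, and 4 control replicates received the control siRNA siNTC. The time in the column names is 48 h, every group received an siRNA, and no untransfected cells were compared. A single cell line stands behind all 16 libraries, so the values describe IMR32 only. Whether the replicates came from separate transfections is not given in the labels, and if they did not, the p-values measure technical spread only.

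E2F factors bind gene promoters and set the transcription of genes needed for DNA replication and cell division. E2F1, E2F2 and E2F3 are the classical activators and pair with a DP protein, E2F4 and E2F5 act mainly with pocket proteins as repressors, E2F6 represses through Polycomb proteins, and E2F7 and E2F8 bind DNA without a DP partner and repress. RB1 and RBL1, the latter also called p107, hold E2Fs inactive until cyclin-dependent kinases phosphorylate them. Several genes of these families are known to be E2F targets themselves.

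The libraries held 5318159 to 7864343 counts (median 5966581), and reads came from the 3′ ends of transcripts, so that a count does not grow with transcript length. Levels are given in CPM, counts divided by a library total that was corrected for composition by TMM. The control libraries had 327 CPM ± 27.1 (SD, n = 4) of TPX2 itself, and its mean was 28.0% of that level with si45, 24.9% with si46 and 21.8% with si47. In each of the 3 comparisons the groups did not overlap, with a two-sided exact permutation p of 0.0286, the smallest that 4 against 4 libraries allow. Of 11 sympathetic neuroblast markers all were tested, with HAND2 at 715 CPM ± 31.6 (SD, n = 4) in siNTC, whereas TH, which encodes the first enzyme of catecholamine synthesis, was at 2.78 CPM ± 0.836 (SD, n = 4). Of 6 brain glial markers none was tested, OLIG2 was at 0 in every library, and the summed level of the 6 did not pass 1.02 CPM in any library. Of 10 mesenchymal markers 6 were tested and 0 passed the edgeR test against siNTC (1 at an unadjusted p below 0.05), with sums of 497 to 572 CPM in siNTC and 494 to 644 CPM over the knockdown libraries.

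The members differed in promoter sequence. The promoters, running from 250 bases before to 50 after each RefSeq start on GRCh38.p14, were searched on both strands for 8 words of the classical E2F site, TTTCCCGC, TTTCCCGG, TTTCGCGC, TTTCGCGG, TTTGCCGC, TTTGCCGG, TTTGGCGC and TTTGGCGG, and overlapping matches were all counted. Of the 10 members 8 had an entry, E2F5 and E2F8 had none, and the entry for RB1 starts within the gene. The windows below show words, in capitals, from the promoters of the 3 members that passed the test for the mean of the siRNAs (E2F1, E2F2 and RBL1), from that of E2F3 at the first of its listed starts, and from that of E2F6, a member with such a word whose level did not pass in any comparison. The window of CDC6, which encodes a replication licensing factor and has the third most similar pattern to E2F1 across libraries, is given beside them. Each window is 30 bases, written on the strand of its gene, and those of E2F6 and CDC6 each hold 1 of the 2 words of their promoter.
E2F1: tcTTTCGCGGCAAAaaggaTTTGGCGCgta
E2F2: aaTTTCGCGGcacgacgTTTGGCGCtaaaa
E2F3: cgGCGGGAAAtccgagTTTCGCGGgaggac
RBL1: atTTTCGCGCgcTTTGGCGCaggtggttgt
E2F6: gtTTTCCCGGttgcctcttttctctcaccc
CDC6: gcTTTGGCGGgaggtgggaacgctgtggcc

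The E2F1 window lies at chr20:33686395-33686424 on the minus strand, the E2F2 window at chr1:23531263-23531292 on the minus strand and the E2F3 window at chr6:20401824-20401853 on the plus strand. The RBL1 window lies at chr20:37095996-37096025 on the minus strand, the E2F6 window at chr2:11466317-11466346 on the minus strand and the CDC6 window at chr17:40287849-40287878 on the plus strand. E2F1 carried 3 words, starting 37, 33 and 20 bases before its start, of which the second is on the opposite strand and overlaps the first. E2F2 carried 2, starting 57 and 42 bases before its start, and RBL1 carried 2, starting 26 and 16 bases before. E2F3 carried 2, starting 53 bases before on the opposite strand and 39 bases before. E2F6 carried 2, starting 183 and 78 bases before, of which the window holds the first. CDC6 carried 2, of which the window holds the one 28 bases before the start and the other begins 7 bases after it. In these promoters the words of E2F1, E2F2, E2F3 and RBL1 therefore each fit within 30 bases, and those of E2F6 and of CDC6 lie farther apart. CDC6 fell for the mean of the siRNAs (log2 change -0.41, edgeR adjusted p 0.00148). No word was in the window of E2F4, of E2F7, of the second start of E2F3 or of the RB1 entry.

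Among all 27305 genes with a RefSeq promoter 7.43% held at least 1 word and 0.469% held 2 or more. Among 10162 tested genes with a promoter these shares were 12.7% and 0.846%, and 5 of the 8 members held 2 or more. Of 40 E2F target genes of the G1/S transition with a promoter, 28 (70%) held a word and 12 held 2 or more. Genes that fell for the mean of the siRNAs held a word in 24.3% of 382 promoters, and genes that rose in 12.4% of 346. A match describes letters in a window and not binding.

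**Figure D1:**
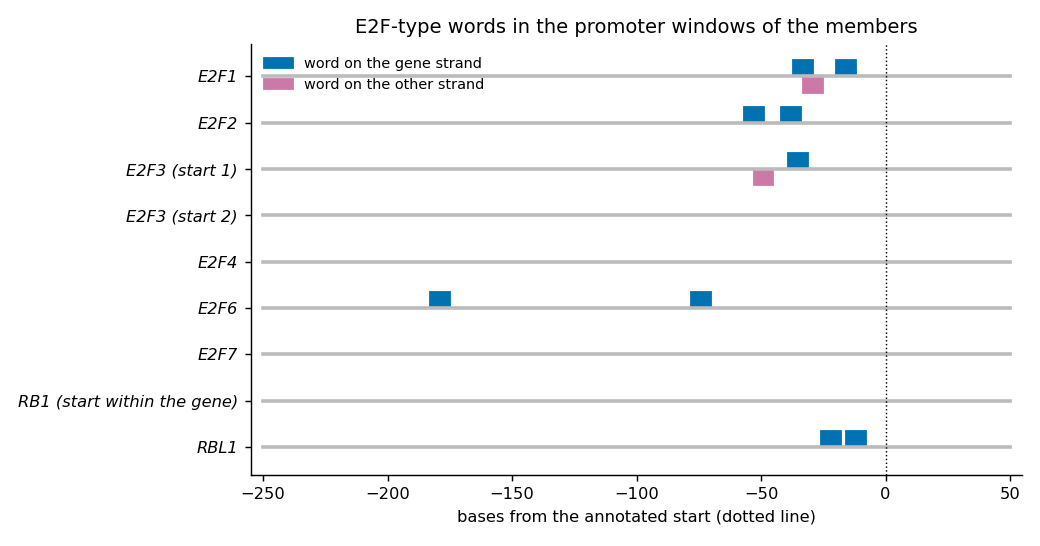
Position of E2F words (horizontal axis, bases from the RefSeq start at 0, negative before it) in the promoters of the members, 1 row per listed start, with blue blocks for words on the strand of the gene and pink blocks for words on the other strand. The words of E2F1, E2F2, RBL1 and the first start of E2F3 begin between 57 and 16 bases before the start, E2F6 has words that begin 183 and 78 bases before it, and the rows of E2F4, E2F7, RB1 and the second start of E2F3 are empty.

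In siNTC the members spanned from 257 CPM for E2F1 to 11.1 CPM for E2F8. E2F3 was the second highest at 171 CPM ± 2.67 (SD, n = 4), and its range did not overlap that of E2F1. E2F6 and RBL1 came next and overlapped each other, followed by E2F2, RB1 and E2F7, whose neighbours in that order overlapped. E2F4, E2F5 and E2F8 were the lowest, and the last pair overlapped. The activators E2F1, E2F2 and E2F3 together made up 79.8% ± 0.767 (SD, n = 4) of the summed E2F CPM in siNTC. Most E2F transcripts measured in control IMR32 cells were therefore from activator genes, mainly E2F1 and E2F3. Transcripts may differ in how well their 3′ ends are captured, and the order of levels is read on this CPM scale only.

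With si47 the activators E2F1, E2F2 and E2F3, the repressor E2F8 and the pocket protein RBL1 fell, which is 5 of 10 members, where 9.74% of all tested genes were called and 4.83% were called lower. With si46 E2F1, E2F2 and RBL1 fell, 3 of 10 members, where 3.40% of tested genes were called and 1.25% were called lower. With si45 no member passed (3 at an unadjusted p below 0.05 in edgeR, and 1 with DESeq2), where 1.34% of tested genes were called and 0.324% were called lower. DESeq2 called 292 of all genes with si45, beside 190 with edgeR. With the replicate number as a block, edgeR called 2 members with si45 and 577 of all genes. For the mean of the siRNAs against siNTC E2F1, E2F2 and RBL1 fell, 3 of 10 members, where 7.14% of tested genes were called and 3.53% were called lower. No member was called higher in any of these comparisons, in which 1.01%, 2.14%, 4.91% and 3.61% of tested genes were called higher with si45, si46, si47 and the mean. The median log2 change over the 10 members was -0.03 with si45, -0.12 with si46, -0.22 with si47 and -0.09 for the mean, beside a median of all genes near 0. These comparisons share the siNTC libraries and are not independent of each other. In bulk RNA, fewer cells in the phases that express a gene and less RNA of it per cell cannot be told apart.

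**Figure D2:**
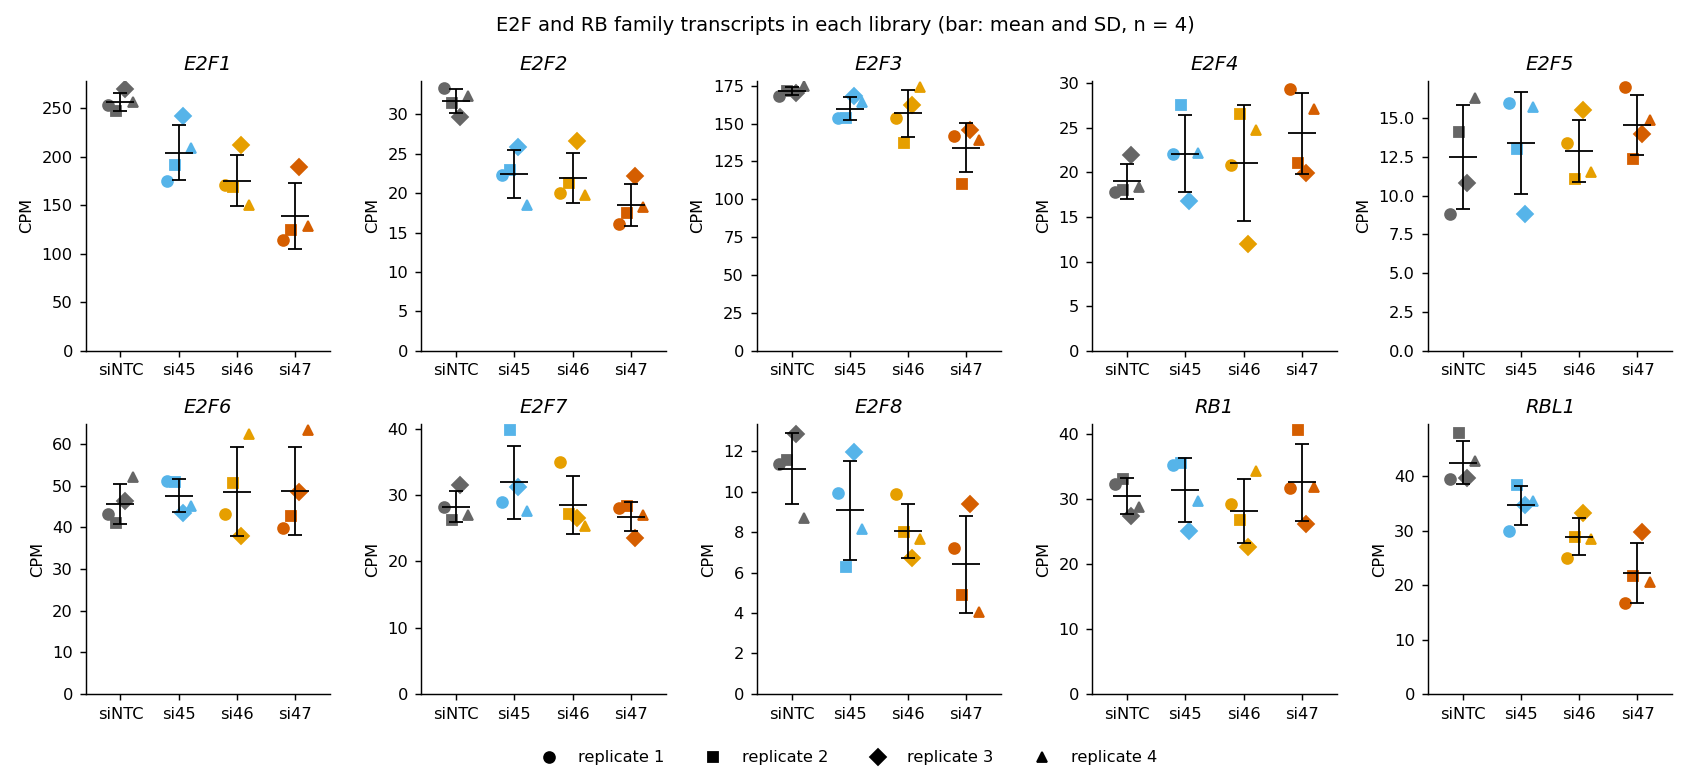
CPM of each member (vertical axis of each panel, TMM-scaled, from 0) in the 16 libraries by group (horizontal axis), with a point per library shaped by replicate number and bars for the mean and SD (n = 4). E2F1, E2F2 and RBL1 have all 12 knockdown libraries below the lowest siNTC library, while the groups of E2F4, E2F5, E2F6, E2F7 and RB1 overlap.

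E2F1 (ENSG00000101412, chr20:33675683-33686404, minus strand) is the activator most tied to S phase entry. It was at 254, 248, 270 and 256 CPM in the 4 siNTC libraries and at 175, 191, 242 and 209 CPM with si45. With si46 it was at 171, 169, 212 and 151 CPM, and with si47 at 115, 124, 190 and 128 CPM. All 12 knockdown libraries lay below the lowest siNTC library, as was so for 1.03% of all tested genes, and within each siRNA the highest library was the one numbered 3. Taken alone, the 4 libraries of si45, si46 and si47 lay below every control for 2.95%, 4.67% and 6.98% of tested genes. The group means were 257 ± 9.45, 204 ± 28.5, 176 ± 25.9 and 139 ± 34.3 CPM (SD, n = 4 each), so that 79.5%, 68.3% and 54.2% of the siNTC level was left with si45, si46 and si47. The log2 change for the mean of the siRNAs was -0.59 (SE 0.103, edgeR adjusted p 7.65e-04), and it was -0.88 with si47 (SE 0.132, edgeR adjusted p 9.78e-05). With si46 it was -0.55 (SE 0.131, edgeR adjusted p 0.0194) and with si45 -0.33 (SE 0.130, edgeR adjusted p 0.297), which did not pass.

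E2F2 (ENSG00000007968, chr1:23506430-23531220, minus strand), a second activator, was at 33.3, 31.4, 29.7 and 32.3 CPM in controls and at 22.4, 22.9, 25.8 and 18.5 CPM with si45. It was at 20.002, 21.3, 26.6 and 19.7 CPM with si46 and at 16.03, 17.4, 22.2 and 18.3 CPM with si47. As for E2F1, each of the 12 knockdown libraries was below every control, and the third-numbered library was the highest of each siRNA. The mean left was 70.7% of siNTC with si45, 69.1% with si46 and 58.3% with si47. The log2 change for the mean of the siRNAs was -0.60 (SE 0.119, edgeR adjusted p 0.00102). E2F2 fell with si47 (-0.78, SE 0.152, edgeR adjusted p 6.67e-04) and si46 (-0.53, SE 0.150, edgeR adjusted p 0.0387), and with si45 it was -0.50 (SE 0.150, edgeR adjusted p 0.0986).

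E2F3 (ENSG00000112242, chr6:20401906-20493715, plus strand), the activator with the second highest level, differed less. Its siNTC libraries were at 169, 171, 170 and 175 CPM, a narrow range, and si45 gave 153, 153, 168 and 164 CPM. The values were 154, 137, 162 and 174 CPM with si46, whose highest library overlapped the controls, and 142, 110, 146 and 139 CPM with si47, all below the controls. E2F3 fell with si47 by 0.35 on the log2 scale (SE 0.0912, edgeR adjusted p 0.00987), and without si47 replicate 2 the change was -0.27 (edgeR adjusted p 0.0724), so that this library decides the call. For the mean of the siRNAs it was -0.19 (SE 0.0734, edgeR adjusted p 0.109), with 11 of 12 knockdown libraries below the lowest control. E2F3 holds the intronic transcript E2F3-IT1 on the same strand, which had 9 to 61 counts per library. Exons of the pair do not overlap, and whether any of their reads were split is not known.

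The calls of E2F1, E2F2 and RBL1 with si46 depended on single libraries. The edgeR adjusted p of E2F1 was 0.0519 to 0.0777 without siNTC replicate 1, 3 or 4 or si46 replicate 1, 2 or 4, with log2 changes of -0.56 to -0.49. That of E2F2 was 0.0577 to 0.129 without any 1 of the siNTC replicates or si46 replicate 1, 2 or 4, with changes of -0.56 to -0.49. That of RBL1 was 0.0631 to 0.0984 without siNTC replicate 2 or 4 or si46 replicate 1, 2 or 4, with changes of -0.56 to -0.49. The number of members called with si46 was then 1 without siNTC replicate 1, 2 or 3 and 0 without siNTC replicate 4 or si46 replicate 1, 2 or 4. All genes called with si46 were 293, 318 and 301 without siNTC replicate 1, 2 and 4, beside 482 with all libraries. They were 252 and 253 without si46 replicate 2 and 4, and 252 to 579 over all fits with a library left out. For the mean of the siRNAs and for si47, E2F1, E2F2 and RBL1 kept an edgeR adjusted p below the threshold when each of the 16 libraries was left out in turn.

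E2F4 (ENSG00000205250, chr16:67192169-67198918, plus strand), which brings pocket proteins to promoters in resting cells, was at 17.8, 17.99, 21.9 and 18.4 CPM in siNTC. It was at 22.05, 27.5, 16.8 and 22.1 CPM with si45, at 20.9, 26.6, 11.95 and 24.8 CPM with si46 and at 29.4, 21.05, 19.99 and 27.1 CPM with si47. The groups overlapped, the lowest library of each siRNA was the one numbered 3, and the log2 change for the mean was 0.24 (95% interval -0.07 to 0.56, edgeR adjusted p 0.422). E2F5 (ENSG00000133740, chr8:85177225-85217158, plus strand), its closest relative, ranged from 8.82 to 17.0 CPM over all libraries, and its log2 change for the mean was 0.12 (SE 0.175, edgeR adjusted p 0.756). Exons of E2F5 overlap C8orf59 on the opposite strand, which had 258 to 397 counts, and since the sources used here do not say plainly whether counting used strand, the E2F5 level is uncertain.

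E2F6 (ENSG00000169016, chr2:11444375-11466177, minus strand), which lacks the pocket protein binding region, had 45.6 CPM ± 4.81 in controls and 47.6 ± 3.95, 48.6 ± 10.6 and 48.7 ± 10.5 CPM with si45, si46 and si47 (SD, n = 4 each). Its log2 change for the mean was 0.08 (95% interval -0.15 to 0.31, edgeR adjusted p 0.755). The groups overlapped with each siRNA.

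Of the atypical factors, E2F7 (ENSG00000165891, chr12:77021247-77065580, minus strand) was at 28.2, 26.3, 31.6 and 27.1 CPM in controls and at 28.1, 28.3, 23.5 and 27.1 CPM with si47, and the groups overlapped. Its log2 change for the mean was 0.04 (95% interval -0.19 to 0.27, edgeR adjusted p 0.893), with 39.9 CPM in 1 si45 library as its highest value. E2F8 (ENSG00000129173, chr11:19224063-19241620, minus strand) was the lowest member, with 24 to 78 counts per library, at 11.4, 11.6, 12.9 and 8.67 CPM in siNTC. It was at 9.94, 6.27, 11.96 and 8.13 CPM with si45, at 9.87, 8.002, 6.73 and 7.64 CPM with si46 and at 7.23, 4.90, 9.41 and 4.06 CPM with si47. The si47 range overlapped the controls through its third-numbered library, and E2F8 fell there by 0.79 on the log2 scale (SE 0.260, edgeR adjusted p 0.0475).

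That E2F8 call was lost in 12 of 16 fits with 1 library left out, with an edgeR adjusted p of 0.0504 to 0.171 and log2 changes of -0.85 to -0.63. It held without siNTC replicate 4, si45 replicate 2 or 3, or si47 replicate 3. For the mean of the siRNAs the log2 change of E2F8 was -0.51 (SE 0.203, edgeR adjusted p 0.128), with 8 of 12 knockdown libraries below the lowest control.

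RB1 (ENSG00000139687, chr13:48303726-48599436, plus strand), the retinoblastoma protein gene, was at 32.4, 33.2, 27.4 and 28.8 CPM in controls and at 35.2, 35.6, 25.1 and 29.7 CPM with si45. It was at 29.2, 26.7, 22.6 and 34.3 CPM with si46 and at 31.7, 40.6, 26.2 and 31.8 CPM with si47. All groups overlapped, and the log2 change for the mean was 0.01 (95% interval -0.23 to 0.25, edgeR adjusted p 0.977). RBL1 (ENSG00000080839, chr20:36996349-37095995, minus strand), the other pocket protein gene among the members, was at 39.4, 48.02, 39.7 and 42.8 CPM in controls and at 29.96, 38.4, 34.7 and 35.6 CPM with si45. It was at 24.9, 28.9, 33.3 and 28.5 CPM with si46 and at 16.7, 21.8, 29.7 and 20.7 CPM with si47. All 12 knockdown libraries of RBL1 were below its lowest control, and 81.5%, 68.0% and 52.2% of the siNTC level was left with si45, si46 and si47.

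RBL1 fell for the mean of the siRNAs (log2 change -0.60, SE 0.116, edgeR adjusted p 8.30e-04), with si47 (-0.94, SE 0.149, edgeR adjusted p 5.05e-05) and with si46 (-0.56, SE 0.146, edgeR adjusted p 0.0251). With si45 it was -0.30 (SE 0.145, edgeR adjusted p 0.434). The ratio of RB1 to RBL1 CPM was 0.719 ± 0.0689 in siNTC, 0.916 ± 0.192 with si45, 0.994 ± 0.246 with si46 and 1.55 ± 0.474 with si47 (SD, n = 4 each). In siNTC RBL1 ranked above RB1, and with si47 the mean of RB1 was above that of RBL1.

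**Figure D3:**
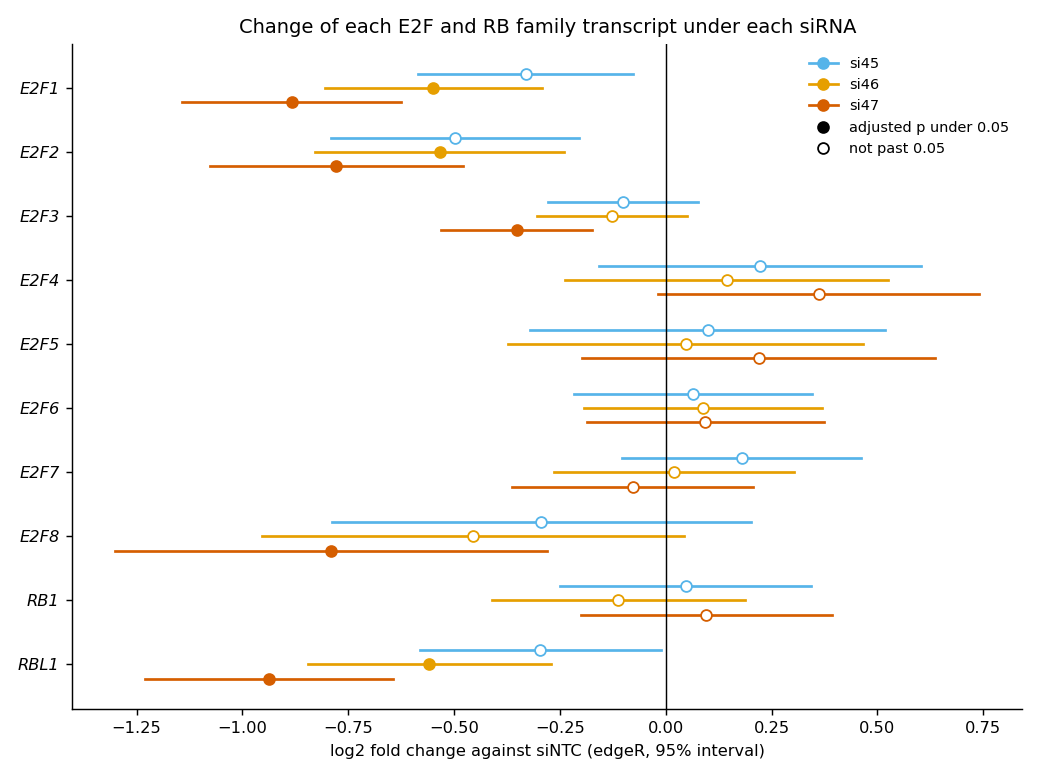
Log2 fold change of each member (rows) against siNTC (horizontal axis) with si45, si46 and si47, with bars for the 95% interval and filled points for an edgeR adjusted p below 0.05. Filled points are 3 with si46 (E2F1, E2F2, RBL1) and 5 with si47 (E2F3 and E2F8 added), all below 0, and the intervals of E2F4, E2F5, E2F6, E2F7 and RB1 include 0 with each siRNA.

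The summed level of the 8 E2F genes was 577 CPM ± 15.8 in siNTC, 511 ± 28.4 with si45, 473 ± 20.3 with si46 and 413 ± 47.5 with si47 (SD, n = 4 each). E2F1 made up 44.6% ± 0.781 of that sum in siNTC and 33.5% ± 4.96 with si47 (SD, n = 4 each). The 3 activators together made up 79.8% ± 0.767 in siNTC and 70.5% ± 3.504 with si47, while E2F4 made up 3.30% and 5.98% and E2F6 7.90% and 11.8%. The ratio of E2F1 to E2F4 was 13.6 ± 0.863 in siNTC, 9.68 ± 3.30 with si45, 9.59 ± 5.52 with si46 and 6.01 ± 2.47 with si47 (SD, n = 4 each). A share can rise because other members fell, and the levels of E2F4 and E2F6 themselves did not pass the test.

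Among the siRNAs the mean levels of E2F1, E2F2, E2F3, E2F7, E2F8 and RBL1 were highest with si45 and lowest with si47, in the order of mean residual TPX2. E2F4, E2F5, E2F6 and RB1 did not have this order. Residual TPX2 was 79.4 to 121 CPM with si45, 62.2 to 93.8 with si46 and 68.7 to 76.3 with si47, so the si46 range overlapped both others. A link to residual TPX2 was not tested, and the siRNAs were compared with each other. No member was called in any of the 3 comparisons with edgeR (0, 3 and 3 at an unadjusted p below 0.05 for si46 against si45, si47 against si45 and si47 against si46), where 0.0282%, 0.169% and 0.0493% of tested genes were called. DESeq2 called 0, 2 and 0 members, and 13, 153 and 45 of all genes, beside 4, 24 and 7 with edgeR. Between si47 and si45 the log2 difference was -0.55 for E2F1 (SE 0.132, edgeR adjusted p 0.0775) and -0.64 for RBL1 (SE 0.150, edgeR adjusted p 0.0542).

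Libraries of si45 and si47 with the same number deviated together, and with the replicate number as a block the difference between these siRNAs passed, at -0.57 for E2F1 (edgeR adjusted p 6.61e-06) and -0.65 for RBL1 (edgeR adjusted p 0.00221). The library numbered 3 had the highest TPX2 level of its group with each siRNA, as it had for E2F1 and E2F2, and the lowest level of E2F4 and RB1. In siNTC that library had the lowest TPX2 (297 CPM) and the highest E2F1 (270 CPM). What sets this library apart was not tested. Without si47 replicate 3 the E2F1 and RBL1 differences were -0.74 (edgeR adjusted p 2.10e-04) and -0.82 (edgeR adjusted p 0.00485), and without si45 replicate 1 their edgeR adjusted p was 0.0498 and 0.0429. E2F1 also passed without si46 replicate 3 (edgeR adjusted p 0.0468). Against si46, E2F1 was -0.33 and RBL1 -0.38 with si47, both with an edgeR adjusted p of 0.559, and without si47 replicate 3 E2F1 was -0.52 (edgeR adjusted p 0.0364). For E2F2, E2F3 and E2F8 the differences between si47 and si45 were -0.28, -0.25 and -0.50 (edgeR adjusted p 0.544, 0.266 and 0.516).

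Libraries were also described by which genes followed a member across all 16 of them, among 9164 genes. The pattern of E2F1 was most like those of DTL (Pearson r 0.977), GJC1 (0.971) and CDC6 (0.968). With group means removed and all 16 libraries pooled these were 0.954, 0.926 and 0.868, and no r was computed within a single group. E2F2 was most like HJURP (0.940), FADS1 (0.922) and TTF2 (0.921), and RBL1 most like RAD51AP1 (0.955), XRCC2 (0.943) and WDR76 (0.943). After the same removal of group means these r were lower, at 0.709, 0.624 and 0.713 for E2F2 and 0.838, 0.787 and 0.774 for RBL1. The points share library preparation and depth, and the genes were picked for their r.

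The rest of the pathway was described through 9 lists with 108 genes in all, of which 106 were tested, for the mean of the siRNAs against siNTC unless another comparison is named. Among the DP dimer partners TFDP2 rose, from 104 CPM ± 8.40 in siNTC to 132 ± 8.63 with si47 (SD, n = 4 each), with a log2 change for the mean of 0.24 (SE 0.0750, edgeR adjusted p 0.0461). That call was lost without any 1 of siNTC replicates 1, 2 and 3, si45 replicates 2 and 4, si46 replicates 1, 2 and 4 or si47 replicate 2, at an edgeR adjusted p of 0.0573 to 0.172, with limma-voom (0.0516), without a filter (0.0796) and without the third-numbered library of every group (0.0723). TFDP1, the more common partner of E2F1, was at -0.17 (edgeR adjusted p 0.409).

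Of the cyclins and kinases that phosphorylate pocket proteins, 7 of 8 were tested and CCND2 had no counts. CDK2, which drives S phase entry with cyclin E, fell by 0.41 on the log2 scale (edgeR adjusted p 0.00431) and CCND1, encoding cyclin D1, rose by 0.28 (edgeR adjusted p 0.0105). By siRNA CCND1 passed with si46 (0.44, edgeR adjusted p 0.00147) and not with si45 (0.16, edgeR adjusted p 0.497) or si47 (0.25, edgeR adjusted p 0.0619). Without siNTC replicate 1 CCND1 was at 0.24 for the mean (edgeR adjusted p 0.0754). CDK2 passed with si46 and si47, and CCND3, encoding cyclin D3, fell with si47 by 0.70 (edgeR adjusted p 0.0112). CCNE1 was at -0.47 (edgeR adjusted p 0.0730), CCND3 at -0.34, CDK4 at -0.16, CCNE2 at -0.06 and CDK6 at -0.03, and these did not pass for the mean. CCNE1, encoding cyclin E1, passed without a filter (edgeR adjusted p 0.0451), without si45 replicate 4 (0.0440) and without the third-numbered library of each siRNA (0.0340).

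Of the 6 CDK inhibitors 2 rose and 4 did not pass. CDKN1A, which encodes p21 and keeps pocket proteins unphosphorylated, had 66.7 CPM ± 26.1 in controls and 274 ± 27.6, 417 ± 65.1 and 547 ± 102 CPM with si45, si46 and si47 (SD, n = 4 each). Its log2 change was 2.58 for the mean (edgeR adjusted p 2.06e-05), and all 12 knockdown libraries were above every control, as for 1.49% of tested genes. CDKN1C, encoding p57, rose by 0.71 on the log2 scale (edgeR adjusted p 0.0156). Without siNTC replicate 1, 2 or 3 CDKN1C was at 0.62, 0.61 and 0.70 with an edgeR adjusted p of 0.0780, 0.0771 and 0.0575. CDKN1B, CDKN2A, CDKN2C and CDKN2D did not pass.

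The MuvB complex, which joins pocket proteins and E2F4 as a repressor or MYBL2 and FOXM1 as an activator of mitotic genes, had 6 of 7 listed genes tested and 2 lower. MYBL2, itself an E2F target, fell by 0.47 on the log2 scale (edgeR adjusted p 0.00125) and FOXM1 fell by 0.33 (edgeR adjusted p 0.0111). FOXM1 was at -0.31 without siNTC replicate 1 (edgeR adjusted p 0.0542). The core genes LIN9, LIN52, LIN54 and RBBP4 did not pass and LIN37 was not tested. With si47 the histone chaperone gene RBBP4 fell too, by 0.32 on the log2 scale (SE 0.0806, edgeR adjusted p 0.00833). For the mean RBBP4 was at -0.17 (edgeR adjusted p 0.1098), and it passed without si45 replicate 3 (0.0477), without the third-numbered library of each siRNA (0.00965) and without that of every group (0.0243).

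None of the 8 genes of the E2F6 Polycomb complex passed in edgeR (2 at an unadjusted p below 0.05), namely MGA, L3MBTL2, PCGF6, RNF2, RING1, RYBP, YAF2 and CBX3. RYBP was the nearest at 0.20 (edgeR adjusted p 0.0723), and passed with DESeq2 (adjusted p 0.0364). Of 8 RB corepressors SIN3A fell by 0.31 on the log2 scale (edgeR adjusted p 0.0178) and SUV39H1, a histone methyltransferase, fell by 0.56 (edgeR adjusted p 0.0434), while HDAC1, HDAC2, SIN3B, ARID4A, ARID4B and KDM5A did not pass. With si47 ARID4A rose by 0.39 (edgeR adjusted p 0.0150). SIN3A was lost without siNTC replicate 2, 3 or 4 (-0.32, -0.26 and -0.31, edgeR adjusted p 0.05003, 0.107 and 0.0654). SUV39H1 was lost in 12 fits with 1 library left out (edgeR adjusted p 0.0543 to 0.230), those without any siNTC library, si45 replicate 1, 2 or 4, si46 replicate 1, 2 or 4, or si47 replicate 1 or 2.

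Of 5 genes of E2F protein turnover, CCNF, the F-box protein that marks E2Fs for degradation, fell by 0.50 on the log2 scale (edgeR adjusted p 0.00423). SKP2, SKP1, CUL1 and FZR1 did not pass, with SKP2 at 0.02.

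Of 45 E2F target genes of the G1/S transition, 29 fell and 0 rose for the mean of the siRNAs, all 45 had a negative log2 change, and the median was -0.37. HELLS, a chromatin remodeller, fell by 0.49 on the log2 scale (SE 0.0661, edgeR adjusted p 4.17e-06), where siNTC had 342 CPM ± 31.3 and si47 206 ± 7.44 (SD, n = 4 each). ATAD2, an E2F coactivator, fell by 0.57 (SE 0.0847, edgeR adjusted p 2.97e-05), with 290 CPM ± 29.2 and 159 ± 21.1 in the same groups. MCM4, a subunit of the replicative helicase, fell by 0.47 (SE 0.0737, edgeR adjusted p 4.88e-05), with 281 CPM ± 3.04 and 178 ± 22.5. Without siNTC replicate 4 the count was 17, and all genes called were 632, beside 1014 with all libraries.

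By siRNA, 1, 11 and 35 of the 45 targets fell with si45, si46 and si47, with medians of -0.21, -0.35 and -0.56. The count with si45 was 0 without siNTC replicate 1 or 2 or si45 replicate 1 or 4, and leaving out si45 replicate 3 gave 8. With si46 it was 6 without siNTC replicate 1 or si46 replicate 2 or 4, 7 without si46 replicate 1 and 17 without si47 replicate 3. Over the fits with a library left out, all genes called ranged from 97 to 406 with si45 and 252 to 579 with si46.

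Of 20 genes activated by p53, which acts on E2F targets through p21 and the pocket proteins, 17 rose and 0 fell for the mean, with a median log2 change of 1.49. With si45, si46 and si47 14, 16 and 19 rose, with medians of 1.26, 1.38 and 1.78. PHLDA3, an inhibitor of AKT, TP53INP1 and FDXR had the lowest p, with log2 changes of 1.79, 1.62 and 1.52. CDKN1A is on this list and on that of the CDK inhibitors.

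**Figure D4:**
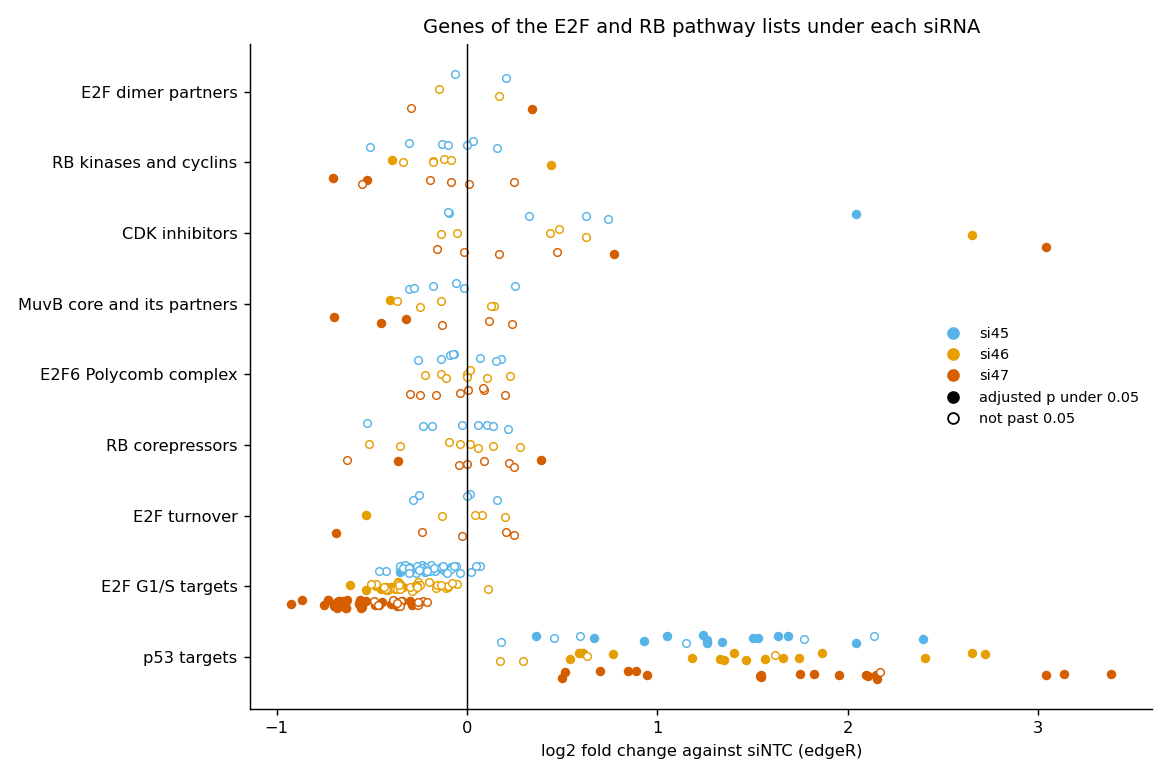
Log2 fold change against siNTC (horizontal axis) of each tested gene in the 9 pathway lists (rows) with si45, si46 and si47, with filled points for an edgeR adjusted p below 0.05. The points of the G1/S targets have medians of -0.21, -0.35 and -0.56 with si45, si46 and si47, all points of the p53 targets lie above 0, and the other lists lie on both sides of 0.

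Of 11 sympathetic neuroblast markers 2 rose for the mean of the siRNAs, HAND2 and CHGA, and DBH fell, and the sum of the list was 5423 to 5788 CPM in siNTC, 5700 to 6199 CPM with si45, which overlaps it, 5892 to 6568 CPM with si46 and 6142 to 6651 CPM with si47. The part of this in the values of the E2F and pocket protein genes was not tested.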

How the data were processed

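RNA of IMR32 cells was sequenced as single-end 3′ end libraries made with 15 PCR cycles, per the labels' protocols. The authors deposited 1 table of raw counts per Ensembl gene for 16 libraries. The submitters' processing notes name FastQC 0.11.7, STAR 2.7.2b, edgeR 3.36.0, limma 3.50.3 and GRCh38. The annotation and the treatment of reads that match several genes are not given in the sources used here. The deposited table's name holds the word "forwarded", which may refer to strand and is not explained. PCR duplicates could not be separated from molecules.

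Each column was assigned to its sample from the siRNA and the number in its name. Symbols were found for 58434 of 58787 rows, and positions were taken from GENCODE v29. The 24 pairs of replicates within groups differed by more than sampling noise (chi-square per degree of freedom 4.36 to 9.80). Genes were filtered with filterByExpr (minimum count 10, minimum total 15), scaled by TMM and tested with edgeR 4.0.16 in R 4.3.3, using a single robust quasi-likelihood fit to all libraries with a mean for each group. The p-values were adjusted by Benjamini-Hochberg over all 14193 genes within each comparison, with a threshold of 0.05. The SE is the log2 change divided by the square root of F, and a 95% interval is 1.96 SE to each side. TPX2 was compared on log2(CPM + 1). DESeq2 1.42.0, limma-voom (limma 3.58.1), other scalings, other filters, a replicate block and fits without single libraries were alternatives.

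Same-numbered libraries of si45 and si47 deviated from their group means together in every pair (r 0.120 to 0.242 across genes). With each r above 0.1 these were counted as paired. Other pairs of groups had a positive r as well (0.0188 to 0.247), with at least 1 number at or below 0.1 in each pair of groups. The fit behind the p-values above used no pairing, except where a replicate block is named.

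On simulated counts with 200 of 13945 genes changed by 1 on the log2 scale, 62.0%, 60.5% and 59.0% were recovered for si45, si46 and si47 and 72.0% for the mean, with 10, 4, 6 and 5 false calls. All members changed by less than this, the largest change being -0.94 with si47. Recovery of smaller changes was not simulated, and the simulated counts held no link between same-numbered libraries.

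The members, gene lists and marker lists were chosen with earlier results of these data known, and no list was given a test of its own. Named genes were TPX2, all members, all genes of lists of at most 8, the 3 genes of lowest p per direction in longer lists, and the 3 genes most like each called member, among genes with a mean of at least 10 CPM. Markers of the cell type were named from their lists after their values were seen.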

Additional observations from a re-analysis of the deposited data

Results flagged for a closer look

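E2F4 was at 21.9 CPM in siNTC replicate 3, where the other siNTC libraries were between 17.8 and 18.4 CPM, so that this library stood apart from its group by Dixon's ratio (0.857, above the 95% critical value). TPX2 was at 121 CPM in si45 replicate 3, where the other si45 libraries were between 79.4 and 85.1 CPM (ratio 0.862). Of 48 groups of 4 values examined 2 stood apart, and chance alone gives about 1 in 20.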

How the results depend on the processing

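Of 1810 values of the 10 members over 70 results and their alternatives, 1693 kept direction and side of the threshold, 33 lost the call, 29 gained one and 55 turned direction, none of them called and none larger than 0.148 on the log2 scale. Of 1200 values of 48 pathway genes, 33 lost the call, 20 gained one and 14 turned direction. E2F1, E2F2 and RBL1 stayed called lower with si47 and for the mean of the siRNAs under every alternative run. The RLE and upper-quartile scalings moved the median of all genes by less than 0.02. The causes of the changes below were not tested. E2F8 had 24 to 78 counts per library, which limits its precision.

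The number of members called with si45 was 1 with DESeq2, where E2F2 was at -0.50 (adjusted p 0.0494), and 1 without a filter, where E2F1 was at -0.32. All genes called with si45 were then 292 and 356, beside 190. For si47 against si45 the members called were 2 with DESeq2 and 2 without a filter. All genes called there were 153 and 166, beside 24. With the replicate block the members called were 2 with si45 (E2F1 -0.34, edgeR adjusted p 0.00451, and E2F2 -0.51, edgeR adjusted p 0.0282), 2 for si47 against si45 and 1 for si47 against si46 (E2F1, edgeR adjusted p 0.0200). The block also called E2F3 for the mean of the siRNAs (-0.20, edgeR adjusted p 0.0252), as it did CCNE1 (0.0163), RBBP4 (0.0248), RYBP (0.0257), ARID4A (0.0251) and SKP1 (0.0149). These blocked fits pair libraries by number. In the other pairs of groups same-numbered libraries also had a positive r, from 0.0188 to 0.247, and whether they share a batch is not given in the labels. With the block the pathway genes called were 28 with si45 and 50 with si46, beside 15 and 31, and the G1/S targets called lower were 8 and 27, beside 1 and 11. All genes called with the block were 577, 1073, 2198 and 1817 for si45, si46, si47 and the mean, beside 190, 482, 1382 and 1014, and 33, 398 and 108 between siRNAs, beside 4, 24 and 7. Without a filter 3 and 17 targets fell with si45 and si46, and with only the groups compared 0 and 20. E2F2 with si46 was not called without a filter (edgeR adjusted p 0.0544), nor was E2F8 with si47 in a fit of only the groups compared (0.0596).

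After the data were seen, fits without the third-numbered library were added, since residual TPX2 was highest there with each siRNA. Without it in each siRNA group 2 members were called with si45 (E2F1 and E2F2), 2 for si47 against si45 (E2F1 and RBL1) and 5 for the mean, E2F3 and E2F8 added. All genes called in the same order were 554, 82 and 1825, beside 190, 24 and 1014 with all libraries, so calls rose among all genes too. The pathway genes called with si45 were 30, and the targets lower 9 with si45 and 19 with si46. All genes called with si46 were 793, beside 482. Without it in every group 2 members were called with si45 and 2 for si47 against si45, with 25 pathway genes and 6 targets with si45. All genes called were then 379 with si45 and 77 for si47 against si45.

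When single libraries were left out, the members called ranged from 0 to 1 with si45, 0 to 3 with si46, 3 to 5 with si47, 3 to 3 for the mean, 0 to 2 for si47 against si45, 0 to 1 for si47 against si46 and 0 to 0 for si46 against si45. The 1 with si45 was E2F2 without si45 replicate 3 (-0.57, edgeR adjusted p 0.0461). The targets called lower ranged from 0 to 8, 6 to 17, 28 to 36 and 17 to 34 with si45, si46, si47 and the mean, and the pathway genes called from 12 to 27, 20 to 38, 52 to 68 and 42 to 62. All genes called ranged from 97 to 406, 252 to 579, 932 to 1664 and 629 to 1388 with si45, si46, si47 and the mean. For si47 against si45, si47 against si46 and si46 against si45 the ranges were 10 to 147, 2 to 23 and 4 to 7.

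Values near 0 turned direction. With limma-voom RB1 was at -0.0051 for the mean and E2F6 was at -0.012 for si46 against si45. Without the third-numbered library of each siRNA E2F5 was at -0.052 with si46, CDK6 was at 0.0066 for the mean, HDAC1 was at -0.025 for the mean, E2F4 was at 0.0024 for si46 against si45, E2F8 was at 0.076 for si46 against si45, E2F5 was at -0.012 for si47 against si45, E2F6 was at -0.014 for si47 against si45 and E2F6 was at -0.093 for si47 against si46. Without the third-numbered library of every group E2F5 was at -0.11 with si46, E2F7 was at 0.033 with si47, HDAC1 was at -0.024 for the mean, E2F4 was at 0.0026 for si46 against si45, E2F8 was at 0.076 for si46 against si45, E2F5 was at -0.012 for si47 against si45, E2F6 was at -0.014 for si47 against si45 and E2F6 was at -0.093 for si47 against si46.

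Leaving out single libraries gave these ranges for results that turned direction. With si45 the log2 values ran for E2F5 from -0.039 to 0.25 and RB1 from -0.013 to 0.14. With si46 the log2 values ran for E2F5 from -0.091 to 0.20, E2F6 from -0.056 to 0.19 and E2F7 from -0.10 to 0.074. With si47 the log2 values ran for E2F6 from -0.061 to 0.18 and RB1 from -0.026 to 0.19. For the mean the log2 values ran for CDK6 from -0.072 to 0.0095, E2F5 from -0.016 to 0.27, E2F7 from -0.0010 to 0.095, HDAC1 from -0.037 to 0.052, LIN54 from -0.080 to 0.16, MGA from -0.067 to 0.032, RB1 from -0.037 to 0.057 and SKP2 from -0.013 to 0.090. For si46 against si45 the log2 values ran for E2F2 from -0.15 to 0.038, E2F3 from -0.079 to 0.031, E2F4 from -0.21 to 0.11, E2F5 from -0.20 to 0.044 and E2F6 from -0.12 to 0.12. For si47 against si45 the log2 values ran for E2F5 from -0.031 to 0.22, E2F6 from -0.13 to 0.11 and RB1 from -0.072 to 0.14. For si47 against si46 the log2 values ran for E2F6 from -0.15 to 0.15 and E2F7 from -0.15 to 0.023.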
